A study of Mus musculus with 12 samples.

Results

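N40K is a truncated form of U1-70K, and its effect on messenger RNA was examined here in the hippocampus of young adult mice by setting the 3 transgenic libraries of 3 months of age against the 3 wild-type libraries of the same age, 6 of the 12 libraries of the series. The other 6 libraries are the same 2 genotypes at 12 months. All mice were C57BL/6J. The transgenic mice were from the Tg396 line, a single line that carries N40K under a modified CaMKIIa promoter, which restricts it to neurons, and the wild-type mice were their littermates without the transgene. Of the 23352 gene entries in the deposited table, 13576 (58.1%) had 1 FPKM or more in 3 or more of these 6 libraries and were compared. FPKM is the number of fragments per kilobase of transcript, scaled to the mapped fragments of the library, so levels of different genes can be set side by side.

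U1-70K, the product of Snrnp70, binds the U1 small nuclear RNA and, with the products of Snrpa and Snrpc, forms the U1 small nuclear ribonucleoprotein (U1 snRNP). This particle recognises the donor site where an intron begins, and it also restrains cleavage and polyadenylation inside genes. In Alzheimer's disease U1-70K collects in insoluble deposits and shorter fragments of it are found in the brain, of which N40K, per the series' title, is one. The hippocampus holds the pyramidal and dentate granule neurons that serve the formation of memories, in which the CaMKIIa promoter is active.

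Libraries were made from poly-A RNA. Their approximate depth, read from how low values are spaced, was 40.06 to 97.16 M reads, lowest in N40K replicate 3. Correlations of log2 values over genes ran from 0.989 to 0.995 within a genotype and from 0.984 to 0.991 between genotypes, and the first principal component (37.9% of the variance) placed the wild type on one side and N40K on the other. Some libraries stood apart in tissue content. Ttr, the main choroid plexus transcript, was at 138, 122 and 5813 FPKM in the wild type and 96.8, 1700 and 74.2 FPKM in N40K, far higher in wild-type replicate 3 and N40K replicate 2 than in the rest. Drd2, a striatal marker, was at 0.938, 1.14 and 1.21 FPKM in the wild type and 4.04, 0.841 and 1.10 FPKM in N40K, high in N40K replicate 1 alone. Sex is not in the labels. Xist was at 14.6 and 13.5 FPKM in wild-type replicates 2 and 3 and at 17.3 FPKM in N40K replicate 3, and the Y-linked Ddx3y was at 13.9 to 14.8 FPKM in the other 3 libraries, so the sexes were unequal between the groups. The labels do not say whether each library is 1 mouse, and p-values measure the spread between these samples.

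Snrnp70 itself was at 179, 161 and 179 FPKM in the wild type and 399, 401 and 377 FPKM in N40K, a rise of 1.18 ± 0.12 (SE; adjusted p = 0.000142) on the log2(FPKM + 1) scale and a ratio of means of 2.27. The groups were far apart, with every N40K library above every wild-type library by more than the spread within either. Whether the added reads come from the transgene or the resident gene cannot be told apart in a table of 1 value per gene. Differences below are N40K minus wild type on the same log2(FPKM + 1) scale, given ± the standard error, from a limma model over all 12 libraries, and adjusted p is Benjamini-Hochberg over the 13576 genes. Changes of genes at low levels come out smaller on this scale than as ratios. A gene is said to have risen, fallen or been called at an adjusted p under 0.05. Where a call was lost on leaving out 1 library, the highest adjusted p so found and the library left out are given after the adjusted p from all libraries.

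Of the 13576 genes 1621 were called (11.9%), 1121 higher in N40K (8.26%) and 500 lower (3.68%). Most changes were small: the median size among called genes was 0.28, 235 exceeded 0.5 and 29 exceeded 1, while 89 had at least 2 times the wild-type mean FPKM and 14 no more than 0.5 times. The median over all genes tested was 0.021. Higher calls made up 69.2% of the calls on the deposited scale and 53.4% after median-ratio scaling, 54.3% after quantile normalization, 54.0% after each library's trend with transcript length was removed and 53% after its trend with GC content was removed. Each of these 4 alternatives also recentres the genes, with medians over all genes of -0.007, -0.010, -0.007 and -0.008, so a share nearer to even follows in part from how they are built. In the fifth of genes with the highest GC content 13.9% were called higher and 1.8% lower, and in the fifth with the lowest 4.7% and 5.7%. With 1 library left out the number called was 808 (without wild-type replicate 2) to 1349 (without N40K replicate 1), and without both libraries rich in Ttr it was 572. A fit with Xist as a covariate called 1116. Groups did not overlap, with N40K above, in 20.6% of genes tested, and with N40K below in 11.7%.

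**Figure D1:**
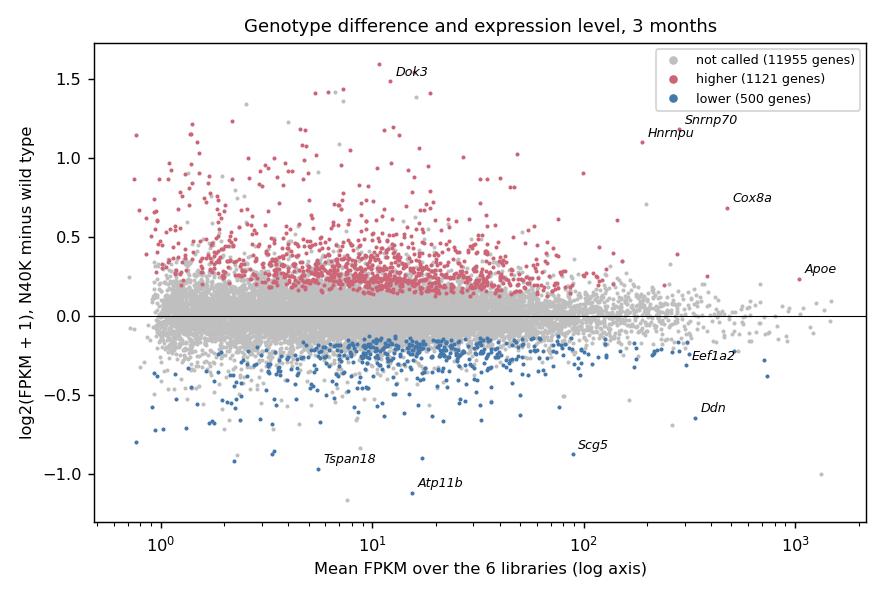
Mean FPKM over the 6 libraries of 3 months (log axis) against the difference in log2(FPKM + 1), N40K minus wild type, for 13576 genes. Red points are the 1121 genes called higher, blue the 500 called lower and grey the rest; Snrnp70 and Hnrnpu stand out among genes of high level.

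The 15 largest rises and falls are taken by the ratio of mean FPKM, among called genes with a mean of at least 5 FPKM and no overlap between groups. Hnrnpu had the smallest standard error of these rises. Its product (also called SAF-A) binds nuclear RNA and chromatin. Hnrnpu was at 119.8, 122 and 118 FPKM in the wild type and 258, 255 and 259.7 FPKM in N40K, a log2 difference of 1.10 ± 0.053 (SE; adjusted p = 2.36e-06). The 3 libraries of each genotype lay within a few FPKM of each other and the groups did not overlap. Hnrnpu overlaps Cox20 in the annotation, and the strand used in counting was not given, so reads of the pair may be shared.

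Lgals4, a galectin that binds galactosides, was at 2.72, 3.43 and 4.40 FPKM in the wild type and 10.3, 12.4 and 10.6 FPKM in N40K (log2 difference 1.43 ± 0.12, adjusted p = 4.35e-05). Its near copy Lgals6 was at 5.74, 7.59 and 9.68 FPKM in the wild type and 22.8, 27.1 and 21.98 FPKM in N40K (log2 difference 1.54 ± 0.15, adjusted p = 0.000104), and an entry that joins both names had a log2 difference of 1.59 ± 0.15 (SE; adjusted p = 9.72e-05). The 3 entries may share reads and are better read as 1 signal. Of the other 5 galectins, Lgals9 fell, with 5.91 to 6.61 FPKM in the wild type and 4.32 to 5.27 FPKM in N40K (log2 difference -0.33 ± 0.068, adjusted p = 0.00961). The other 4 were not called.

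Dok3, an adaptor of signalling in immune cells, was at 6.02, 5.08 and 6.71 FPKM in the wild type and 17.7, 18.1 and 19.2 FPKM in N40K (log2 difference 1.49 ± 0.13, adjusted p = 5.09e-05). The predicted gene Gm14378 was at 10.02, 9.05 and 10.4 FPKM in the wild type and 27.1, 28.1 and 27.9 FPKM in N40K (log2 difference 1.41 ± 0.18, adjusted p = 0.000584). Sds, serine dehydratase, was at 2.90, 1.91 and 2.64 FPKM in the wild type and 7.05, 9.65 and 8.06 FPKM in N40K (log2 difference 1.41 ± 0.14, adjusted p = 0.000125). In all 3 the lowest N40K library was more than 2 times the highest wild-type library.

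Ap1g2, a gamma subunit of an adaptor complex of membrane traffic, rose, with 7.11 to 7.27 FPKM in the wild type and 16.1 to 18.9 FPKM in N40K (log2 difference 1.2 ± 0.15, adjusted p = 0.000635). Tmem86b, which cleaves lysoplasmalogens, rose, with 6.26 to 6.94 FPKM in the wild type and 15.4 to 16.7 FPKM in N40K (log2 difference 1.18 ± 0.15, adjusted p = 0.000764). In both, all 3 N40K libraries were above 2 times the highest wild-type library. Tmc4, of the transmembrane channel-like family, rose, with 3.05 to 3.64 FPKM in the wild type and 6.93 to 8.46 FPKM in N40K (log2 difference 1.02 ± 0.16, adjusted p = 0.00227). Doc2g, of the Doc2 family of C2-domain proteins, rose, with 3.58 to 5.57 FPKM in the wild type and 10.4 to 11.6 FPKM in N40K (log2 difference 1.05 ± 0.15, adjusted p = 0.00146). Sds overlaps Plbd2, Ap1g2 overlaps Thtpa and Tmc4 overlaps Leng1.

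The remaining 3 of the 15 largest rises were of another kind, with N40K replicate 1 close to the wild type. Scand1, which encodes a SCAN-domain protein and overlaps Cnbd2, was at 7.93, 7.51 and 6.83 FPKM in the wild type and 9.23, 27.0 and 21.5 FPKM in N40K (log2 difference 1.15 ± 0.28, adjusted p = 0.0235, and up to 0.0882 without N40K replicate 3). The microRNA locus Mir5130, which overlaps Kctd12, was at 2.27, 2.69 and 2.75 FPKM in the wild type and 3.43, 13.3 and 12.5 FPKM in N40K (log2 difference 1.41 ± 0.39, adjusted p = 0.0386, and up to 0.143 without N40K replicate 2). Egr4, an immediate early gene, was at 3.59, 4.53 and 5.12 FPKM in the wild type and 5.98, 11.6 and 11.9 FPKM in N40K (log2 difference 0.95 ± 0.19, adjusted p = 0.00918). Its call was lost in a limma fit of the 6 libraries of 3 months alone (adjusted p = 0.0507) and without both libraries rich in Ttr. Among all 1121 genes called higher, 46 had N40K replicate 1 below both other N40K libraries by more than 0.3 on the log2 scale, against 3 genes for replicate 2 and 3 for replicate 3. These 46 include Cox8a, Ndufab1 and Pcsk1n below.

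**Figure D2:**
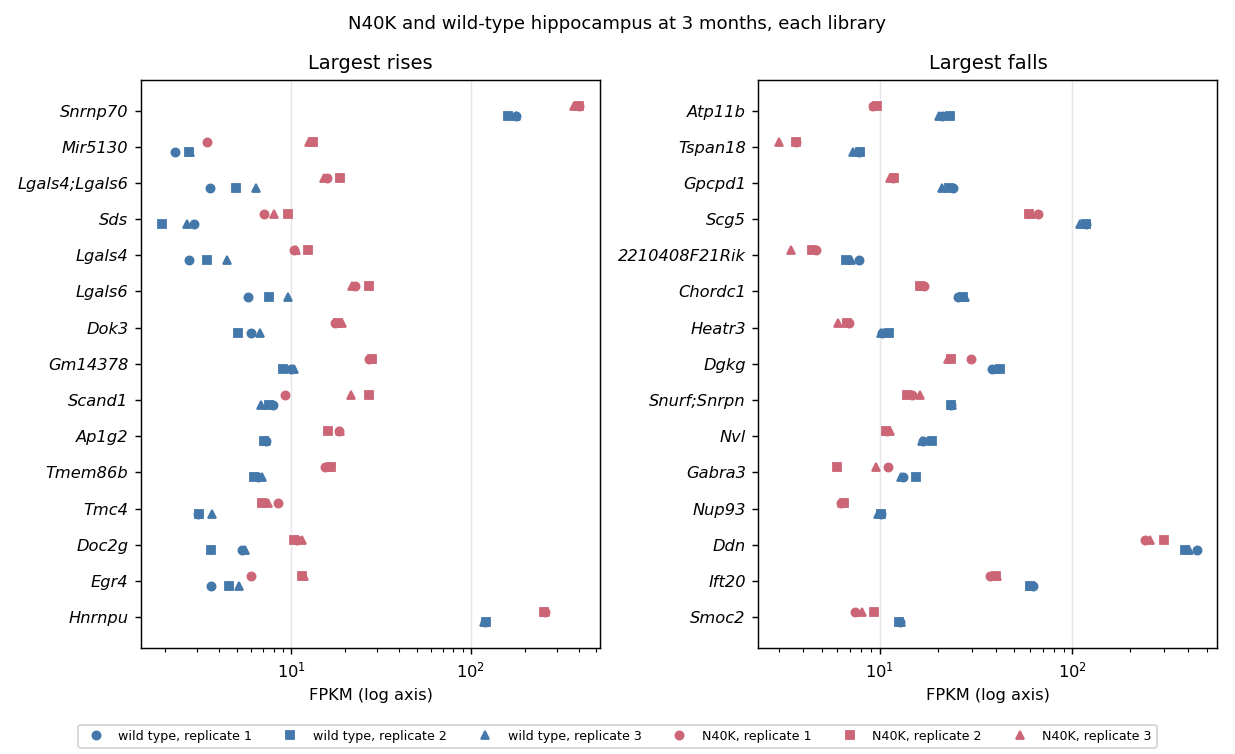
FPKM (log axis) in each of the 6 libraries for Snrnp70 and the other large rises (left) and for the 15 largest falls (right). Blue is wild type and red N40K, with a circle, square and triangle for replicates 1, 2 and 3; Scand1, Mir5130 and Egr4 have N40K replicate 1 near the wild type, and in the other rises all 3 N40K libraries lie together.

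Atp11b, a flippase that moves phospholipids between membrane leaflets, had the lowest ratio of means among the 15 largest falls. It was at 21.1, 23.1 and 20.3 FPKM in the wild type and 9.16, 9.69 and 9.28 FPKM in N40K (log2 difference -1.12 ± 0.070, adjusted p = 8.33e-06). None of the other 13 flippase and scramblase genes tested was called. Atp9a was at 114 to 118 FPKM in the wild type and 106 to 117 FPKM in N40K, which overlapped. Tmem30a, the partner subunit of several flippases, was at 101 to 107 FPKM in the wild type and 94.3 to 97.4 FPKM in N40K.

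Tspan18, a tetraspanin, was at 7.83, 7.84 and 7.29 FPKM in the wild type and 3.68, 3.66 and 3.00 FPKM in N40K (log2 difference -0.96 ± 0.067, adjusted p = 1.91e-05). Gpcpd1, which breaks down glycerophosphocholine, was at 24.1, 22.8 and 20.97 FPKM in the wild type and 11.8, 11.8 and 11.3 FPKM in N40K (log2 difference -0.90 ± 0.057, adjusted p = 9.08e-06). Scg5 encodes 7B2, the chaperone of prohormone convertase 2, and was at 118, 117 and 109.5 FPKM in the wild type and 66.3, 59.5 and 61.3 FPKM in N40K (log2 difference -0.87 ± 0.070, adjusted p = 3.52e-05). In each of these the 3 N40K libraries lay close together and well below the lowest wild-type library.

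Chordc1, a partner of Hsp90, fell, with 25.4 to 27.6 FPKM in the wild type and 16.1 to 17.0 FPKM in N40K (log2 difference -0.66 ± 0.062, adjusted p = 8.29e-05). Nup93, of the nuclear pore, fell, with 9.82 to 10.2 FPKM in the wild type and 6.31 to 6.54 FPKM in N40K (log2 difference -0.58 ± 0.055, adjusted p = 8.94e-05). Nvl, an ATPase of ribosome assembly that overlaps Fgfr3-ps, fell, with 16.5 to 18.7 FPKM in the wild type and 10.8 to 11.3 FPKM in N40K (log2 difference -0.61 ± 0.071, adjusted p = 0.000397). In these 3 each group was tight, within 3 FPKM from lowest to highest. Ift20, of intraflagellar transport, fell, with 60.3 to 62.4 FPKM in the wild type and 37.4 to 40.5 FPKM in N40K (log2 difference -0.62 ± 0.044, adjusted p = 2.13e-05). Dgkg, a diacylglycerol kinase, fell, with 38.2 to 42.2 FPKM in the wild type and 22.5 to 29.7 FPKM in N40K (log2 difference -0.66 ± 0.11, adjusted p = 0.00327). Smoc2, a secreted calcium-binding matrix protein, fell, with 12.5 to 12.9 FPKM in the wild type and 7.46 to 9.31 FPKM in N40K (log2 difference -0.57 ± 0.083, adjusted p = 0.0016). Heatr3, a HEAT repeat protein, had 10.1 to 11.2 FPKM in the wild type and 6.03 to 6.88 FPKM in N40K (log2 difference -0.61 ± 0.057, adjusted p = 8.29e-05). The noncoding 2210408F21Rik, which overlaps Lncpint, fell, with 6.67 to 7.80 FPKM in the wild type and 3.46 to 4.64 FPKM in N40K (log2 difference -0.67 ± 0.10, adjusted p = 0.00174). These 8 genes kept their calls under every alternative processing that was run.

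The genes of RNA processing were taken as lists of known members. Counts for these and all later lists are to be read beside the 8.26% of all genes called higher and the 3.68% called lower. In the U1 snRNP list, 13 genes for the particle and its partners, Snrnp70 and Snrpa rose and Snrnp35 and Tial1 fell. Snrpa encodes another protein of the particle and was at 42.5, 40.5 and 40.8 FPKM in the wild type and 46.9, 47.9 and 48.7 FPKM in N40K (log2 difference 0.21 ± 0.042, adjusted p = 0.00918). Snrnp35, the counterpart of U1-70K in the minor spliceosome, was at 5.95, 6.10 and 6.39 FPKM in the wild type and 4.98, 5.58 and 4.77 FPKM in N40K (log2 difference -0.23 ± 0.062, adjusted p = 0.0353, and up to 0.123 without N40K replicate 3). Tial1, a partner of U1 at weak splice sites, was at 28.8, 29.1 and 28.9 FPKM in the wild type and 25.5, 24.7 and 23.7 FPKM in N40K (log2 difference -0.22 ± 0.066, adjusted p = 0.0499, and up to 0.154 without N40K replicate 3). The list's median was -0.036 against 0.021 over all genes. Without 1 library at a time the list had 0 or 1 lower calls, and 1 only without N40K replicate 2, while both rises were called in each case.

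Sm proteins ring the snRNAs and the SMN complex loads them. Of 17 such genes 4 rose and 0 fell (median 0.044), 23.5% and 0.0% against 8.26% and 3.68% of all genes. Snrpb, for the Sm proteins B and B', was at 73.0, 65.3 and 70.5 FPKM in the wild type and 77.8, 82.4 and 81.8 FPKM in N40K (log2 difference 0.21 ± 0.051, adjusted p = 0.0213, and up to 0.0892 without wild-type replicate 2). Snrpf was at 14.9, 15.2 and 13.6 FPKM in the wild type and 16.1, 22.5 and 23.3 FPKM in N40K (log2 difference 0.46 ± 0.12, adjusted p = 0.0321, and up to 0.119 without N40K replicate 2). Of the other two, Snrpd2 encodes an Sm protein (log2 difference 0.18 ± 0.054, adjusted p = 0.0494, and up to 0.161 without N40K replicate 2) and Gemin8 a subunit of the SMN complex (log2 difference 0.17 ± 0.047, adjusted p = 0.0411, and up to 0.124 without N40K replicate 1). With 1 library left out 0 to 3 were called higher (0 without wild-type replicate 2, N40K replicate 2 or N40K replicate 3). The neuronal Sm protein SmN comes from the imprinted Snurf and Snrpn locus, and the entry that joins these names was at 23.4, 23.4 and 23.7 FPKM in the wild type and 14.6, 13.9 and 16.1 FPKM in N40K (log2 difference -0.63 ± 0.10, adjusted p = 0.00217). Snrpn alone, also an entry and a member of the list, was at 79.0, 75.8 and 68.5 FPKM in the wild type and 60.3, 64.9 and 65.4 FPKM in N40K and was not called. The entries share sequence, and how their reads were divided is not known.

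Among 40 genes of the U2 snRNP, the tri-snRNP and the catalytic spliceosome 6 rose and 0 fell, with a median of -0.004. Sf3b3, of the SF3b complex in U2, was at 24.9, 26.2 and 26.4 FPKM in the wild type and 38.3, 36.4 and 36.8 FPKM in N40K (log2 difference 0.51 ± 0.043, adjusted p = 4.74e-05), with no overlap between groups. Sf1, the branch point binding protein, was at 35.3, 33.7 and 35.7 FPKM in the wild type and 47.0, 45.6 and 43.8 FPKM in N40K (log2 difference 0.37 ± 0.042, adjusted p = 0.000284). Lsm4, of the ring on U6, rose by 0.33 ± 0.068 (adjusted p = 0.00947) and Snrpa1, the U2 protein A', by 0.20 ± 0.046 (adjusted p = 0.0173, and up to 0.0779 without wild-type replicate 2). Prpf4 and Ppih are the other calls. With 1 library left out 4 or 5 rose, and after scaling or trend removal 1 to 3 of the list were called lower.

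Of 50 hnRNPs and neuronal splicing regulators 8 rose (16.0%) and 2 fell (4.0%), with a median of -0.006. Over all genes 8.26% rose and 3.68% fell. Besides Hnrnpu, the neuronal regulator Celf5 was at 58.4, 55.5 and 56.6 FPKM in the wild type and 79.8, 73.4 and 73.1 FPKM in N40K (log2 difference 0.40 ± 0.062, adjusted p = 0.00227). Hnrnph3 rose (log2 difference 0.36 ± 0.071, adjusted p = 0.00773) while Hnrnph1, which shares its family, fell, with 135 to 147 FPKM in the wild type and 111 to 120.2 FPKM in N40K (log2 difference -0.26 ± 0.055, adjusted p = 0.0114, and up to 0.0513 without N40K replicate 3). Hnrnpul1, a paralog of Hnrnpu, rose by 0.27 ± 0.050 (adjusted p = 0.00624), and Mbnl2, a regulator of neuronal splicing, fell (log2 difference -0.15 ± 0.038, adjusted p = 0.0238, and up to 0.092 without wild-type replicate 2). The list's lower calls numbered 0 to 4 with 1 library left out, 0 without N40K replicate 3.

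Other RNA factors changed singly. Of 25 SR genes, which promote exon inclusion, Srsf6 rose (log2 difference 0.23 ± 0.061, adjusted p = 0.0306, and up to 0.113 without wild-type replicate 2) and the SR protein kinase Srpk2 fell (log2 difference -0.22 ± 0.045, adjusted p = 0.0102). Of 21 cleavage and polyadenylation factors Pcf11 rose (log2 difference 0.27 ± 0.067, adjusted p = 0.0237, and up to 0.0771 without wild-type replicate 1) and Cstf2 fell (log2 difference -0.26 ± 0.064, adjusted p = 0.0224, and up to 0.0857 without N40K replicate 2). Of 21 genes of the exon junction complex and nonsense-mediated decay Rnps1 rose (log2 difference 0.25 ± 0.047, adjusted p = 0.00617), as did the helicase Upf1 (log2 difference 0.16 ± 0.047, adjusted p = 0.043, and up to 0.13 without wild-type replicate 2). Counts of 1 or 2 in lists of this size are near what 8.26% and 3.68% of all genes come to.

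MicroRNA loci are listed in the table by gene name, but poly-A libraries read the long transcripts that cross them and not the mature forms. Of 604 loci 186 passed the filter, and 10 rose and 3 fell. These are 5.4% and 1.6%, below the 8.26% and 3.68% of all genes. Leaving out single libraries gave 7 to 14 rises and 1 to 3 falls, the fewest of both without N40K replicate 3. The mature sequences of 6 called loci described below, from RefSeq (GRCm38.p6), show which microRNAs the loci encode, with the seed at bases 2 to 8 in capitals.
mmu-let-7f-5p (Mirlet7f-1): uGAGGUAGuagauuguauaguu
mmu-miR-1900 (Mir1900): gGCCGCCCucucugguccuuca
mmu-miR-3112-5p (Mir3112): aCAUAGAAaaggcagucugca
mmu-miR-5132-3p (Mir5132): cUGAUGUUccccaucccgcag
mmu-miR-135a-5p (Mir135a-1): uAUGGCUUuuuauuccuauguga
mmu-miR-697 (Mir697): aACAUCCUgguccuguggaga
No 2 of these 6 share a seed.

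Mirlet7f-1, a let-7 locus that overlaps the noncoding 6720427I07Rik, was at 2.01, 2.41 and 3.02 FPKM in the wild type and 5.20, 6.32 and 5.06 FPKM in N40K (log2 difference 0.91 ± 0.13, adjusted p = 0.00122). Mir1900 was at 33.6, 28.4 and 32.0 FPKM in the wild type and 49.5, 72.4 and 75.4 FPKM in N40K (log2 difference 1.02 ± 0.14, adjusted p = 0.00125). Both had no overlap between groups, and Mir1900 was lower in N40K replicate 1 than in the other two N40K libraries. Mir3112 lies in Cstf2 and was at 2.61, 2.61 and 2.5 FPKM in the wild type and 5.65, 6.46 and 5.19 FPKM in N40K (log2 difference 0.92 ± 0.13, adjusted p = 0.00133); Cstf2 itself fell, so the value over the microRNA and that of its host went opposite ways. Mir5132, which overlaps Irak1, rose by 0.50 ± 0.078 (adjusted p = 0.00221).

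Of the falls, Mir135a-1, which overlaps Glyctk, was at 4.37, 4.76 and 3.56 FPKM in the wild type and 2.29, 2.33 and 3.34 FPKM in N40K (log2 difference -0.52 ± 0.11, adjusted p = 0.01). A limma fit of the 6 libraries of 3 months alone did not call Mir135a-1 (adjusted p = 0.0526). Mir697 was at 3.17, 2.95 and 2.82 FPKM in the wild type and 2.17, 1.92 and 1.38 FPKM in N40K (log2 difference -0.50 ± 0.13, adjusted p = 0.0245, and up to 0.0888 without N40K replicate 3). The host transcript Mir22hg was at 16.5, 16.2 and 16.6 FPKM in the wild type and 13.3, 14.6 and 13.3 FPKM in N40K (log2 difference -0.24 ± 0.054, adjusted p = 0.0162, and up to 0.064 without N40K replicate 3). In each the highest N40K library was below the lowest wild-type library. Small nucleolar RNA loci, which guide modification of ribosomal RNA, were called in 2 of 84, both higher (2.4% against 8.26% of all genes). Snord53 was at 3.85, 3.15 and 1.70 FPKM in the wild type and 5.29, 7.79 and 6.63 FPKM in N40K (log2 difference 0.99 ± 0.26, adjusted p = 0.0315, and up to 0.112 without N40K replicate 2). Snord95, inside Rack1, rose (log2 difference 0.48 ± 0.13, adjusted p = 0.0309, and up to 0.107 without wild-type replicate 2). Of 23 nuclear and structured noncoding RNAs only Snhg5 was called (log2 difference 0.26 ± 0.065, adjusted p = 0.0239, and up to 0.094 without N40K replicate 2). Meg3, abundant in neurons, was at 233 to 276 FPKM in the wild type and 203 to 259 FPKM in N40K, which overlapped.

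Replication-dependent histone genes make the histones of S phase, and their messages normally end in a stem-loop without a poly-A tail, so these libraries capture only the part that is polyadenylated. Of 66 such genes 20 passed the filter, 5 of them through the N40K libraries alone, which had to differ. Of the 15 that passed through both groups 14 rose and 0 fell, with ratios of means from 1.07 to 2.77 and a median log2 difference of 0.715, against 8.26% called higher and a median of 0.021 over all genes. With the other 5 counted, 19 of 20 were called higher. Without the filter, 26 of the 66 were called higher and 0 lower, against 1055 higher and 478 lower of the 20397 genes so tested.

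The promoters of the 4 histone genes with the smallest p are shown because histone genes are known for CCAAT boxes and TATA boxes close to their start. Each is the 150 bases before the start in RefSeq (GRCm38.p6), 5′ to 3′ on the gene's strand, with CCAAT and TATAAA in capitals on either strand (ATTGG and TTTATA on the other). The 2 motifs were counted separately.
Hist1h4k, chr13:21750554-21750703 (reverse strand): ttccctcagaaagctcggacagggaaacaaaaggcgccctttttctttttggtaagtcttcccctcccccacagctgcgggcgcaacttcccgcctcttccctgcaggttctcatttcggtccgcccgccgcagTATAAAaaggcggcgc
Hist1h4i, chr13:22041363-22041512 (reverse strand): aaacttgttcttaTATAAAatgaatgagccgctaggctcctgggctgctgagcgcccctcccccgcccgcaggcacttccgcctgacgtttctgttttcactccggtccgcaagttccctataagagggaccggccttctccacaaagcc
Hist1h3d, chr13:23575613-23575762 (forward strand): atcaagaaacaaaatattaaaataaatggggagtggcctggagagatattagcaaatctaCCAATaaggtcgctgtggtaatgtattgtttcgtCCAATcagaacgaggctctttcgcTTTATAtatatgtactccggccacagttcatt
Hist3h2a, chr11:58954535-58954684 (forward strand): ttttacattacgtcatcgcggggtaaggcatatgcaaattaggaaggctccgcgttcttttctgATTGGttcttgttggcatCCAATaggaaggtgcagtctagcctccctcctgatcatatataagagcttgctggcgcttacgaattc
Of the 18 tested histone genes with a RefSeq promoter, 11 held CCAAT (24.5% of 32851 promoters of this length did), 8 held TATAAA (7.6%) and 5 held both (1.9%). A match is a run of letters and not a bound site.

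Hist1h4k was at 1.68, 1.87 and 2.34 FPKM in the wild type and 4.58, 5.23 and 4.89 FPKM in N40K (log2 difference 1.00 ± 0.088, adjusted p = 5.52e-05). Hist1h4i was at 2.22, 2.37 and 3.03 FPKM in the wild type and 7.36, 8.14 and 5.59 FPKM in N40K (log2 difference 1.18 ± 0.13, adjusted p = 0.000248). Both encode histone H4, and in both the groups did not overlap. Hist3h2a, an H2A gene that overlaps Trim17, was at 12.2, 13.7 and 14.5 FPKM in the wild type and 22.6, 23.8 and 21.3 FPKM in N40K (log2 difference 0.71 ± 0.084, adjusted p = 0.000455). Hist1h3d, an H3 gene, was at 0.290, 0.290 and 0.904 FPKM in the wild type and 1.85, 2.98 and 2.07 FPKM in N40K (log2 difference 1.15 ± 0.16, adjusted p = 0.00103), below 1 FPKM in every wild-type library, so that it passed the filter through N40K alone.

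N40K replicate 2 was the highest library in all 19 called histone genes, and it was also one of the 2 rich in Ttr and the highest for dentate granule markers. Wild-type replicate 3, the other library rich in Ttr, was the highest of the wild type in most of them. Their part in the result was not tested beyond leaving them out. Without both libraries 14 of the 20, the 5 that passed through N40K alone included, were called higher, with a median of 0.702. Leaving out 1 library gave 10 (without wild-type replicate 2) to 19 calls and medians of 0.574 to 0.755, scaling and trend removal gave 17 to 19, and Xist as a covariate 16. A fit of the 6 libraries alone gave 12. Hist2h2be alone was not called, at 2.94, 2.99 and 3.11 FPKM in the wild type and 3.24, 3.44 and 2.97 FPKM in N40K. Hist2h2aa1 and Hist2h2aa2, and Hist2h3c1 and Hist2h3c2, are near copies whose reads cannot be separated with certainty.

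**Figure D3:**
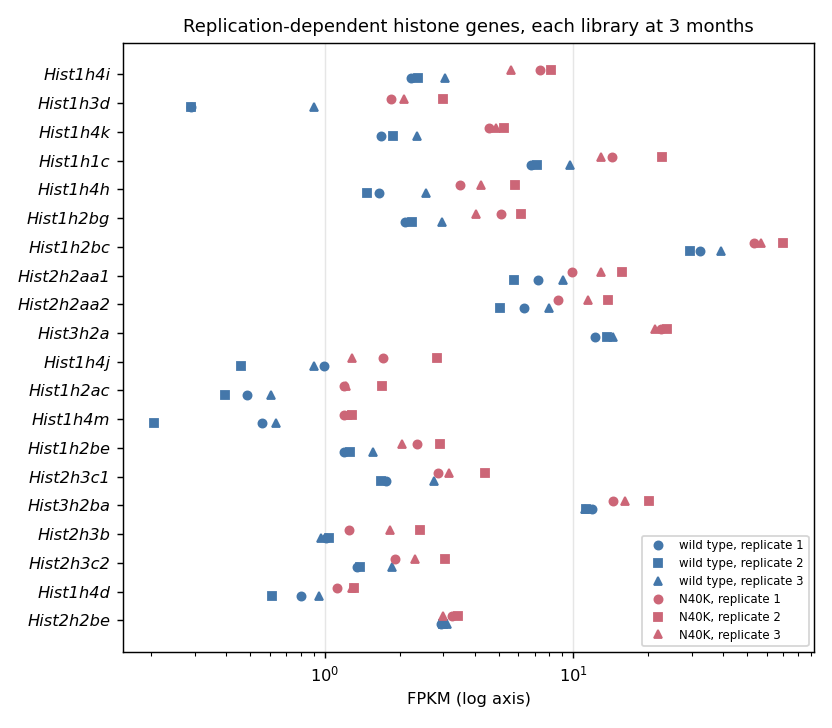
FPKM (log axis) of the 20 replication-dependent histone genes that passed the filter, in each library of 3 months, ordered by their log2 difference. Blue is wild type and red N40K, with a circle, square and triangle for replicates 1, 2 and 3; in all genes but Hist2h2be every N40K library lies above every wild-type library.

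Histones made outside S phase, whose messages carry a poly-A tail, moved less: 2 of 11 rose and 0 fell (median 0.181). H2afy, for macroH2A, was at 29.2, 29.1 and 29.5 FPKM in the wild type and 35.1, 35.8 and 34.8 FPKM in N40K (log2 difference 0.26 ± 0.034, adjusted p = 0.000896). H2afx, for H2A.X of the DNA damage response, was at 9.40, 8.39 and 8.07 FPKM in the wild type and 9.55, 15.2 and 13.3 FPKM in N40K (log2 difference 0.49 ± 0.13, adjusted p = 0.0366, and up to 0.131 without N40K replicate 2), with N40K replicate 1 just above the wild type. Of 61 chromatin regulators 6 rose and 1 fell (median 0.056), shares near those of all genes, with 3 to 5 rises when 1 library was left out. Tet2, which oxidises methylated DNA, was at 3.53, 3.75 and 3.41 FPKM in the wild type and 5.16, 5.41 and 5.15 FPKM in N40K (log2 difference 0.45 ± 0.077, adjusted p = 0.00386). Kdm6b, a histone demethylase, was at 5.55, 5.56 and 6.87 FPKM in the wild type and 8.55, 8.56 and 8.73 FPKM in N40K (log2 difference 0.47 ± 0.094, adjusted p = 0.00898). Both groups were free of overlap in each. The remodeller gene Chd3 rose (log2 difference 0.23 ± 0.050, adjusted p = 0.0131). The deacetylase gene Hdac8 fell (log2 difference -0.22 ± 0.048, adjusted p = 0.013, and up to 0.0566 without N40K replicate 3).

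Of 300 genes named Zfp, mostly zinc finger transcription factors, 44 rose and 6 fell, with a median of 0.078 and 223 of them above 0. These are 14.7% and 2.0% of the list, against 8.26% and 3.68% of all genes, and 2 members passed the filter through N40K alone. Zfp948 was at 4.52, 5.38 and 5.58 FPKM in the wild type and 8.99, 8.96 and 9.65 FPKM in N40K (log2 difference 0.73 ± 0.072, adjusted p = 0.000112). Zfp930 was at 3.19, 3.77 and 3.22 FPKM in the wild type and 6.15, 5.44 and 5.16 FPKM in N40K (log2 difference 0.58 ± 0.071, adjusted p = 0.000501). Neither had overlap between groups. Zfp865 and Zfp661 each rose by a log2 difference of 0.43. Zfp330 fell, with 17.1 to 18.0 FPKM in the wild type and 12.2 to 12.3 FPKM in N40K (log2 difference -0.49 ± 0.058, adjusted p = 0.000444). Zfp46 fell, with 9.28 to 10.6 FPKM in the wild type and 6.796 to 7.74 FPKM in N40K (log2 difference -0.42 ± 0.070, adjusted p = 0.00351). Median-ratio scaling gave 31 higher and 7 lower with a median of 0.053, and 22 (without N40K replicate 2) to 35 rose with 1 library left out.

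The machinery of translation changed little. Of 79 cytosolic ribosomal protein genes 2 rose and 1 fell (median 0.055). Rps15a was at 31.3, 31.4 and 29.9 FPKM in the wild type and 35.2, 37.3 and 35.6 FPKM in N40K (log2 difference 0.22 ± 0.042, adjusted p = 0.00725). Rpl3 fell, with 291 to 314 FPKM in the wild type and 254 to 267 FPKM in N40K (log2 difference -0.22 ± 0.062, adjusted p = 0.0429, and up to 0.144 without wild-type replicate 2). Rpl13 was at 117, 111 and 106 FPKM in the wild type and 118, 199 and 209 FPKM in N40K (log2 difference 0.61 ± 0.16, adjusted p = 0.0345, and up to 0.128 without N40K replicate 2), with N40K replicate 1 only just above the wild type. Of 76 mitochondrial ribosomal genes 6 rose and 3 fell, and with 1 library left out 2 to 7 rose and 0 to 2 fell, the fewest of both without wild-type replicate 2 or N40K replicate 3. Mrpl38 rose (log2 difference 0.29 ± 0.045, adjusted p = 0.0023), and Mrps6 fell, with 20.3 to 26.3 FPKM in the wild type and 17.4 to 18.3 FPKM in N40K (log2 difference -0.34 ± 0.10, adjusted p = 0.0435, and up to 0.139 without wild-type replicate 3).

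Factors of translation initiation and elongation held 6 falls and 2 rises among 63 genes (median -0.016), 9.5% and 3.2% against 3.68% and 8.26% of all genes. Eef1a2, the elongation factor of neurons and muscle, was at 349, 344 and 322 FPKM in the wild type and 286, 252 and 282 FPKM in N40K (log2 difference -0.31 ± 0.064, adjusted p = 0.00973). Eif4a2, the helicase of cap-dependent initiation, was at 231, 240.1 and 226 FPKM in the wild type and 201, 196 and 196 FPKM in N40K (log2 difference -0.23 ± 0.060, adjusted p = 0.0288, and up to 0.107 without wild-type replicate 2). Both are abundant, and in both the groups did not overlap. Eif2s1, for eIF2 alpha, fell (log2 difference -0.23 ± 0.059, adjusted p = 0.0272, and up to 0.101 without wild-type replicate 2). The entry that joins Eif3j1 and Eif3j2 rose, with 5.005 to 6.07 FPKM in the wild type and 7.45 to 8.63 FPKM in N40K (log2 difference 0.45 ± 0.086, adjusted p = 0.00689). With Xist as a covariate 1 of the list was called lower, and with 1 library left out 1 to 4 (1 without wild-type replicate 2, N40K replicate 2 or N40K replicate 3).

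Among 37 aminoacyl-tRNA synthetases and targets of Atf4, 4 fell (10.8%) and 0 rose: Iars, Nars, Cars and Eprs, all synthetases, with log2 differences of -0.21, -0.17, -0.20 and -0.14. Iars was at 17.0, 18.5 and 17.8 FPKM in the wild type and 15.1, 14.9 and 15.6 FPKM in N40K (log2 difference -0.21 ± 0.050, adjusted p = 0.0191, and up to 0.0833 without wild-type replicate 2). Nars was at 80.8, 81.7 and 79.0 FPKM in the wild type and 72.5, 68.6 and 72.5 FPKM in N40K (log2 difference -0.17 ± 0.044, adjusted p = 0.0247, and up to 0.0955 without N40K replicate 2). With Xist as a covariate 1 was called, and with 1 library left out 0 to 3 (0 without wild-type replicate 2 or N40K replicate 2).

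Among heat shock chaperones Dnajb5, an Hsp40 partner of Hsp70, was at 42.7, 42.7 and 47.4 FPKM in the wild type and 60.1, 69.0 and 66.2 FPKM in N40K (log2 difference 0.54 ± 0.063, adjusted p = 0.000362). Dnajb1 (log2 difference 0.24 ± 0.063, adjusted p = 0.033, and up to 0.0936 without wild-type replicate 1) and the Hsp70 gene Hspa2 (log2 difference 0.16 ± 0.043, adjusted p = 0.0317, and up to 0.12 without N40K replicate 2) rose. Hspa4l fell (log2 difference -0.24 ± 0.060, adjusted p = 0.0238, and up to 0.0935 without wild-type replicate 2), as did Chordc1 above, which makes 3 rises and 2 falls among 35 genes (8.6% and 5.7%), near the 8.26% and 3.68% of all genes. Of 28 chaperones and sensors of the endoplasmic reticulum, Fkbp2 alone was called, at 94.7, 88.4 and 90.05 FPKM in the wild type and 75.7, 78.2 and 83.6 FPKM in N40K (log2 difference -0.20 ± 0.049, adjusted p = 0.0238, and up to 0.0862 without wild-type replicate 1). Calr, for calreticulin, was at 145 to 174 FPKM in the wild type and 152 to 161 FPKM in N40K.

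Of 37 proteasome subunits 2 fell and 0 rose, and 28 had a negative log2 difference (median -0.043). Psmd4, a receptor for ubiquitin chains, was at 77.7, 81.4 and 79.2 FPKM in the wild type and 69.0, 66.1 and 68.4 FPKM in N40K (log2 difference -0.23 ± 0.041, adjusted p = 0.00556). Psmd7 fell by less (log2 difference -0.14 ± 0.041, adjusted p = 0.0493, and up to 0.155 without wild-type replicate 1). Of 46 genes of autophagy and lysosomes 2 rose and 2 fell. Atg3, of autophagosome formation, fell (log2 difference -0.24 ± 0.054, adjusted p = 0.016, and up to 0.0673 without wild-type replicate 2). Hexa, for a hexosaminidase subunit, rose, with 33.6 to 38.5 FPKM in the wild type and 41.6 to 44.8 FPKM in N40K (log2 difference 0.28 ± 0.062, adjusted p = 0.0153, and up to 0.0674 without wild-type replicate 2).

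In energy metabolism 3 of 77 genes of oxidative phosphorylation rose and 0 fell (median 0.053), all 3 with N40K replicate 1 near or within the wild type. Cox8a, of cytochrome c oxidase, was at 384, 361 and 334 FPKM in the wild type and 419, 668 and 690.4 FPKM in N40K (log2 difference 0.69 ± 0.15, adjusted p = 0.0137, and up to 0.0599 without N40K replicate 2). Ndufab1, of complex I, was at 26.0, 25.7 and 26.4 FPKM in the wild type and 27.0, 52.9 and 48.5 FPKM in N40K (log2 difference 0.64 ± 0.19, adjusted p = 0.0474, and up to 0.167 without N40K replicate 2). Cox5b, also of cytochrome c oxidase, was at 248.8, 241 and 223 FPKM in the wild type and 247, 350.1 and 349.7 FPKM in N40K (log2 difference 0.39 ± 0.12, adjusted p = 0.0494, and up to 0.174 without N40K replicate 2). Without N40K replicate 2 or 3 the list had 0 calls, and without replicate 1 it had 7. Of 39 genes of glycolysis and the tricarboxylic acid cycle 2 fell, Dlat of pyruvate dehydrogenase (log2 difference -0.31 ± 0.065, adjusted p = 0.0104) and the phosphofructokinase gene Pfkl (log2 difference -0.14 ± 0.038, adjusted p = 0.0386, and up to 0.142 without N40K replicate 2).

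Among 38 postsynaptic scaffolds and kinases of excitatory synapses 7 fell and 2 rose (median -0.070), which is 18.4% and 5.3% against 3.68% and 8.26% of all genes. Ddn encodes dendrin, a protein of dendrites and the postsynaptic density, and was at 442, 387 and 402 FPKM in the wild type and 239.9, 298 and 252 FPKM in N40K (log2 difference -0.64 ± 0.079, adjusted p = 0.000547), with no overlap between groups. It overlaps B130046B21Rik. Dlgap1, a scaffold under the postsynaptic density, was at 39.8, 39.1 and 39.1 FPKM in the wild type and 35.5, 31.9 and 32.9 FPKM in N40K (log2 difference -0.23 ± 0.045, adjusted p = 0.00833). Ppp1r9b, for spinophilin, was at 242, 222 and 222 FPKM in the wild type and 187, 197 and 195 FPKM in N40K (log2 difference -0.25 ± 0.051, adjusted p = 0.0104). In these 2 as well all N40K libraries lay below the wild type. Prkca, for protein kinase C alpha, fell (log2 difference -0.29 ± 0.063, adjusted p = 0.0137, and up to 0.0627 without wild-type replicate 2). Shank3, also a scaffold, rose (log2 difference 0.21 ± 0.048, adjusted p = 0.0186, and up to 0.0743 without wild-type replicate 2). Begain, a further scaffold, rose with N40K replicate 1 near the wild type (log2 difference 0.35 ± 0.084, adjusted p = 0.0221, and up to 0.0871 without N40K replicate 3). With 1 library left out 3 (without wild-type replicate 2) to 6 fell, and GC trend removal gave 9 falls and 0 rises.

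Few receptor genes were called. Of 22 AMPA and kainate receptor genes and partners, Cacng8, the main auxiliary subunit of hippocampal AMPA receptors, was at 79.2, 79.8 and 80.6 FPKM in the wild type and 64.4, 63.8 and 63.3 FPKM in N40K (log2 difference -0.32 ± 0.054, adjusted p = 0.00382). Neto2, of kainate receptors, fell (log2 difference -0.26 ± 0.078, adjusted p = 0.0491, and up to 0.173 without wild-type replicate 2) and Shisa9, another AMPA receptor partner, rose (log2 difference 0.36 ± 0.086, adjusted p = 0.0217, and up to 0.0698 without wild-type replicate 2). None of 6 NMDA receptor genes was called. Grin1, the obligate subunit, was at 144, 128 and 129.8 FPKM in the wild type and 122, 112 and 119.8 FPKM in N40K (log2 difference -0.18 ± 0.066, adjusted p = 0.103, and up to 0.294 without N40K replicate 2). None of 10 metabotropic glutamate receptor genes was called.

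At inhibitory synapses 2 of 13 GABA-A receptor subunits fell and 0 rose (median -0.033). That is 15.4% and 0.0%, against 3.68% and 8.26% of all genes. Gabra2 was at 17.7, 21.5 and 18.7 FPKM in the wild type and 15.8, 13.8 and 13.5 FPKM in N40K (log2 difference -0.40 ± 0.087, adjusted p = 0.0125, and up to 0.0551 without wild-type replicate 2). Gabra3, one of the 15 largest falls, was at 13.2, 15.4 and 12.9 FPKM in the wild type and 11.0, 5.98 and 9.497 FPKM in N40K (log2 difference -0.63 ± 0.16, adjusted p = 0.0289, and up to 0.108 without wild-type replicate 2), lowest in N40K replicate 2. Gphn, for the scaffold gephyrin that holds these receptors, was at 27.0, 28.2 and 26.1 FPKM in the wild type and 23.8, 22.2 and 22.6 FPKM in N40K (log2 difference -0.24 ± 0.042, adjusted p = 0.00479). Slitrk3, an adhesion molecule of inhibitory synapses, rose (log2 difference 0.24 ± 0.059, adjusted p = 0.0261, and up to 0.0904 without N40K replicate 2). These 2 are the calls among 15 genes of GABA synthesis, transport and the gephyrin scaffold.

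The presynaptic release machinery gave 3 falls and 0 rises among 50 genes (median -0.071), 6.0% and 0.0% against 3.68% and 8.26% of all genes. Vamp1, a vesicle SNARE, was at 41.3, 35.2 and 32.1 FPKM in the wild type and 23.6, 25.6 and 27.8 FPKM in N40K (log2 difference -0.48 ± 0.089, adjusted p = 0.00616). Napb, for the SNARE cofactor beta-SNAP, was at 98.8, 106 and 92.8 FPKM in the wild type and 81.7, 76.0 and 83.4 FPKM in N40K (log2 difference -0.30 ± 0.063, adjusted p = 0.0105). Both fell in all 3 N40K libraries below the lowest wild-type library. Amph, for amphiphysin of vesicle recovery, fell (log2 difference -0.17 ± 0.052, adjusted p = 0.0496, and up to 0.184 without wild-type replicate 2). Of 46 synaptic adhesion genes 3 rose and 3 fell, and 1 to 4 fell with 1 library left out. Ptprs, a receptor phosphatase, rose, with 71.0 to 73.4 FPKM in the wild type and 81.6 to 92.1 FPKM in N40K (log2 difference 0.28 ± 0.054, adjusted p = 0.00664). Nrxn2, a neurexin gene, rose (log2 difference 0.22 ± 0.045, adjusted p = 0.0106). Lphn2, a latrophilin, was at 7.88, 7.67 and 8.17 FPKM in the wild type and 5.94, 5.07 and 5.88 FPKM in N40K (log2 difference -0.43 ± 0.069, adjusted p = 0.00277).

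Of 86 voltage-gated and related channel genes 5 fell and 3 rose (median -0.042), 5.8% and 3.5% against 3.68% and 8.26% of all genes. Scn1a, for the sodium channel Nav1.1, was at 10.3, 10.5 and 9.19 FPKM in the wild type and 6.92, 6.83 and 7.25 FPKM in N40K (log2 difference -0.46 ± 0.051, adjusted p = 0.000274). Kcnmb4, a neuronal beta subunit of BK potassium channels whose gene overlaps antisense transcripts, was at 47.6, 40.6 and 41.9 FPKM in the wild type and 27.9, 28.0 and 32.6 FPKM in N40K (log2 difference -0.54 ± 0.070, adjusted p = 0.000749). In both the groups did not overlap. The potassium channel gene Kcnt2 fell (log2 difference -0.26 ± 0.059, adjusted p = 0.0175, and up to 0.0752 without wild-type replicate 2), and so did the calcium channel subunit gene Cacna2d3 (log2 difference -0.22 ± 0.054, adjusted p = 0.0222, and up to 0.0849 without N40K replicate 2). Of the rises, Kcnk9, a leak channel, was at 1.91, 2.49 and 2.41 FPKM in the wild type and 4.05, 3.74 and 2.63 FPKM in N40K (log2 difference 0.44 ± 0.12, adjusted p = 0.0394, and up to 0.133 without N40K replicate 2). With 1 library left out 2 to 7 fell, 2 without wild-type replicate 2, and 0 rose without wild-type replicate 2 or 3.

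Among 32 genes of neuropeptides and dense-core granules 4 rose and 4 fell, 12.5% each against 8.26% and 3.68% of all genes. The falls were Scg5, given above, Pcsk2, Ptprn2 and Chgb. Pcsk2, the convertase that 7B2 serves, was at 61.4, 57.8 and 54.2 FPKM in the wild type and 43.6, 43.4 and 47.1 FPKM in N40K (log2 difference -0.36 ± 0.049, adjusted p = 0.000973). Ptprn2, of the granule membrane, was at 67.7, 70.1 and 66.7 FPKM in the wild type and 59.1, 46.0 and 55.7 FPKM in N40K (log2 difference -0.35 ± 0.073, adjusted p = 0.0111). It was not called in a fit of the 6 libraries of 3 months alone. Chgb, for chromogranin B of the granule core, fell (log2 difference -0.27 ± 0.081, adjusted p = 0.0488, and up to 0.161 without wild-type replicate 1). The rises were Cort, Vgf, Tac1 and Pcsk1n, for secreted peptides and a convertase inhibitor. Cort, for the interneuron peptide cortistatin, was at 8.99, 7.89 and 8.75 FPKM in the wild type and 12.8, 15.2 and 14.8 FPKM in N40K (log2 difference 0.68 ± 0.081, adjusted p = 0.000452). Tac1 was at 5.87, 7.07 and 6.78 FPKM in the wild type and 17.3, 8.43 and 10.5 FPKM in N40K (log2 difference 0.73 ± 0.20, adjusted p = 0.0375, and up to 0.11 without wild-type replicate 1), highest in N40K replicate 1, the library high in Drd2. Pcsk1n, which overlaps Eras, was at 78.5, 62.0 and 58.4 FPKM in the wild type and 69.6, 162 and 166 FPKM in N40K (log2 difference 0.90 ± 0.26, adjusted p = 0.0466, and up to 0.164 without N40K replicate 2), where N40K replicate 1 lay within the wild type. Without wild-type replicate 2 the list had 1 rise.

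Activity-regulated genes, induced within minutes to hours of neuronal firing, held 5 rises and 0 falls among 42, and Egr2, one of the 5, passed the filter through N40K alone and had to differ. Of the other 41 genes 4 rose (median 0.163), near the 8.26% of all genes. Jun was at 22.5, 21.4 and 23.8 FPKM in the wild type and 27.7, 30.9 and 27.5 FPKM in N40K (log2 difference 0.33 ± 0.064, adjusted p = 0.00659). Egr2 was at 0.305, 0.884 and 0.894 FPKM in the wild type and 1.80, 1.55 and 2.14 FPKM in N40K (log2 difference 0.76 ± 0.15, adjusted p = 0.00947). Fosl1, which overlaps Ccdc85b, was at 3.05, 3.16 and 3.28 FPKM in the wild type and 4.46, 4.13 and 4.67 FPKM in N40K (log2 difference 0.38 ± 0.066, adjusted p = 0.00438). All 3 encode transcription factors. Egr4 was given above, and Jund is the other call. With 1 library left out 4 to 6 rose. Of 21 clock genes 5 rose and 0 fell (median 0.117), a share of 23.8% against 8.26% of all genes. Arntl, for the activator Bmal1, was at 11.1, 10.7 and 10.1 FPKM in the wild type and 13.03, 12.2 and 13.02 FPKM in N40K (log2 difference 0.24 ± 0.043, adjusted p = 0.00467). Cry1, for a repressor, was at 6.16, 6.05 and 6.84 FPKM in the wild type and 7.87, 7.68 and 7.24 FPKM in N40K (log2 difference 0.23 ± 0.057, adjusted p = 0.0262, and up to 0.105 without wild-type replicate 2). Nr1d1, Bhlhe40 and Nfil3 are the other calls. Without wild-type replicate 2 the clock list had 1 call and with length trend removed 2. The hour of tissue collection was not in the labels.

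Of 49 genes of Wnt, Notch, Bmp and Hedgehog signalling 5 rose and 0 fell, 10.2% and 0.0% against 8.26% and 3.68% of all genes. Their median of 0.016 was below 0 after median-ratio scaling (-0.008), quantile normalization (-0.030) and GC trend removal (-0.016). Hes5, a target of Notch in neural stem cells and astrocytes, was at 5.8, 4.62 and 3.996 FPKM in the wild type and 8.17, 7.73 and 9.40 FPKM in N40K (log2 difference 0.71 ± 0.11, adjusted p = 0.00227). Id4, an inhibitor of bHLH factors, was at 26.8, 26.3 and 27.5 FPKM in the wild type and 32.9, 38.5 and 36.1 FPKM in N40K (log2 difference 0.40 ± 0.054, adjusted p = 0.000973), and the Notch ligand gene Jag2 rose (log2 difference 0.31 ± 0.066, adjusted p = 0.0113). Of 32 p53 targets and cell death genes Apaf1, of the apoptosome, rose, with 2.80 to 3.16 FPKM in the wild type and 3.82 to 4.21 FPKM in N40K (log2 difference 0.35 ± 0.058, adjusted p = 0.00327). Bid and Bbc3, for proteins that promote cell death, rose by log2 differences of 0.33 and 0.40. The call of Bbc3 was lost without wild-type replicate 1, wild-type replicate 2 or N40K replicate 2, and with GC trend removal. Plk2 fell (log2 difference -0.18 ± 0.050, adjusted p = 0.0357, and up to 0.133 without N40K replicate 2). The p53 and cell death list thus had 3 rises and 1 fall (9.4% and 3.1%), near the 8.26% and 3.68% of all genes. Of 35 DNA damage genes 3 rose and 1 fell (8.6% and 2.9%), also near those shares, H2afx above among the rises. Of 2 genes for poly-ADP-ribose polymerases Parp2 rose (log2 difference 0.16 ± 0.045, adjusted p = 0.0415, and up to 0.146 without N40K replicate 2) and Parp1 fell (log2 difference -0.15 ± 0.037, adjusted p = 0.0238, and up to 0.0787 without wild-type replicate 2).

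In the cytoskeleton 3 of 46 genes of microtubules, motors and neurofilaments fell and 1 rose (median -0.054). Nefm, a neurofilament subunit, was at 41.0, 38.5 and 38.3 FPKM in the wild type and 30.5, 32.0 and 30.8 FPKM in N40K (log2 difference -0.33 ± 0.050, adjusted p = 0.00199), and overlaps Nefl. Dync1i1, an intermediate chain of dynein, was at 59.1, 59.7 and 53.1 FPKM in the wild type and 47.6, 43.1 and 47.7 FPKM in N40K (log2 difference -0.31 ± 0.061, adjusted p = 0.00844). In both all N40K libraries were below the wild type, and Tuba1b, for an alpha-tubulin, is the third fall. The kinesin gene Kif1a rose, with 128 to 137 FPKM in the wild type and 146 to 184 FPKM in N40K (log2 difference 0.35 ± 0.10, adjusted p = 0.0374, and up to 0.131 without N40K replicate 3), and not after median-ratio scaling, quantile normalization or GC trend removal, when the list had 0 rises. Ank1, an ankyrin, was the single call among 39 giant linker and scaffold genes (log2 difference -0.41 ± 0.077, adjusted p = 0.00666).

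Genes tied to Alzheimer's disease by other work were little changed. App was at 465, 485 and 493 FPKM in the wild type and 454, 408 and 454 FPKM in N40K (log2 difference -0.13 ± 0.051, adjusted p = 0.119, and up to 0.367 without N40K replicate 2). In the amyloid precursor and secretase list of 24 genes Itm2c alone was called, rising from 339 to 366 to 409 to 426 FPKM (log2 difference 0.26 ± 0.069, adjusted p = 0.0363, and up to 0.11 without N40K replicate 3). Of 24 genes for tau, its kinases and phosphatases, Ttbk1, a tau kinase, fell (log2 difference -0.25 ± 0.048, adjusted p = 0.00631), Cdk5, another, fell (log2 difference -0.15 ± 0.043, adjusted p = 0.0469, and up to 0.157 without wild-type replicate 1), and Stub1, for the ubiquitin ligase CHIP, rose (log2 difference 0.19 ± 0.050, adjusted p = 0.0278, and up to 0.107 without wild-type replicate 2). Of 22 genes near risk loci Apoe was the one called, at 933, 924 and 1016 FPKM in the wild type and 1049, 1179 and 1159 FPKM in N40K (log2 difference 0.24 ± 0.062, adjusted p = 0.0311, and up to 0.118 without wild-type replicate 2). Clu, the next most abundant, was at 556 to 623 FPKM in the wild type and 598 to 648 FPKM in N40K.

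**Figure D4:**
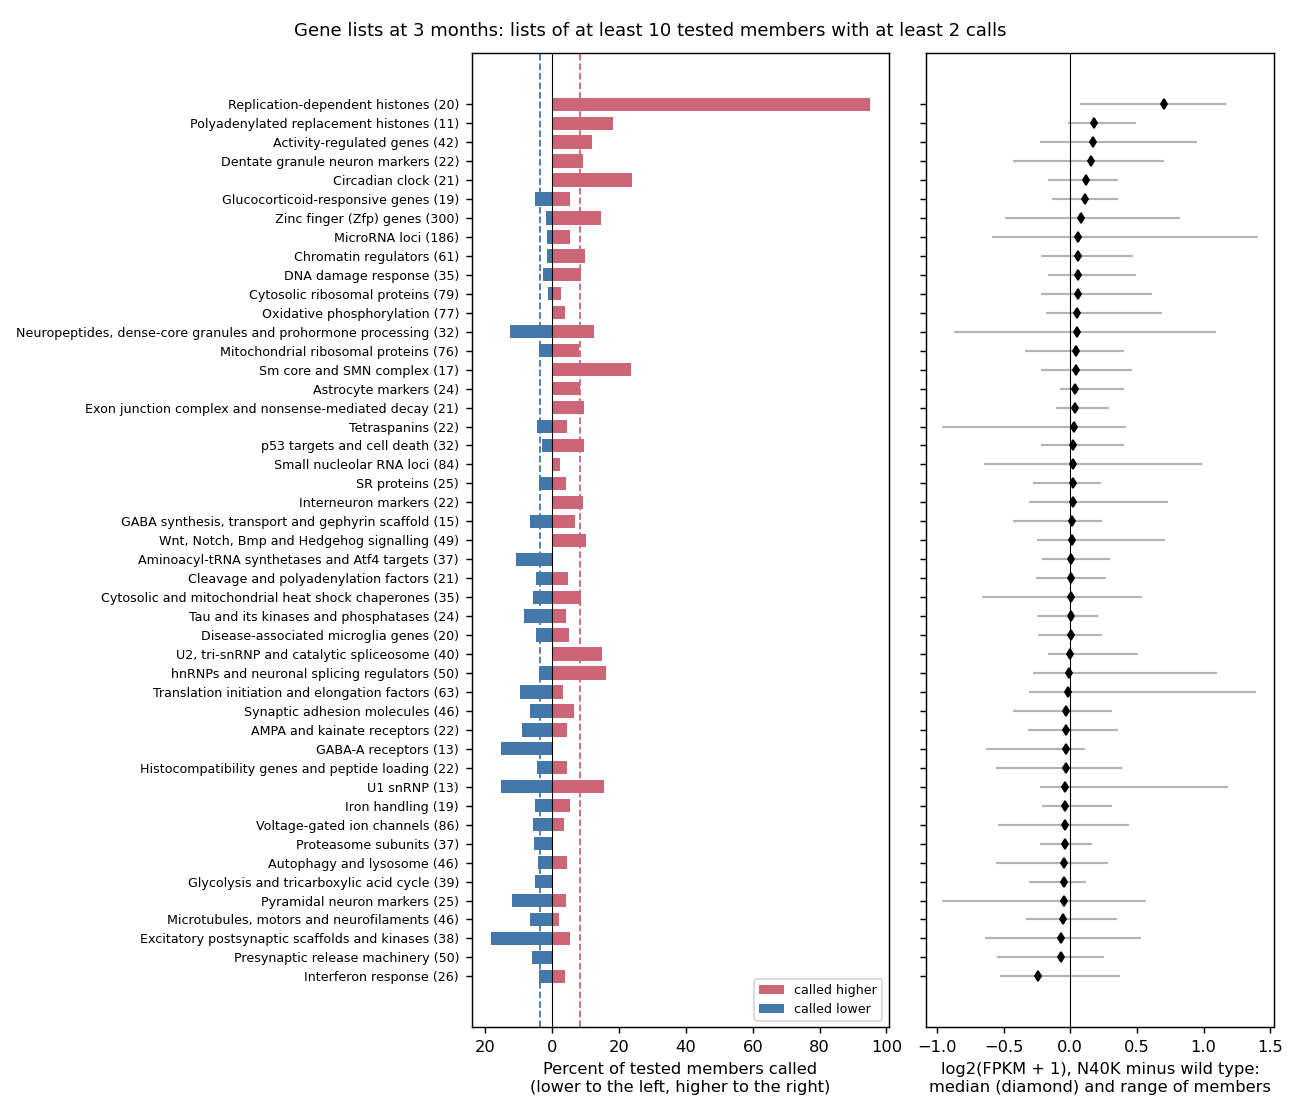
Left, percent of tested members called higher (red, to the right) and lower (blue, to the left) for the lists with at least 10 tested members and at least 2 calls; dashed lines mark the 8.26% and 3.68% of all 13576 genes, and the number tested is in brackets. Right, the median (diamond) and range (line) of the log2 differences of all tested members, those that passed the filter through 1 group alone included; replication-dependent histones lie farthest from 0 and the interferon response has the lowest median.

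Of 26 interferon response genes 2 passed the filter through the wild type alone and had to be lower in N40K. The other 24 had a median of -0.237, with 19 below 0, 1 rise and 1 fall. Each is 3.8% of the 26, against 8.26% of all genes higher and 3.68% lower. A fit of the 6 libraries alone called 1 of the 26 higher and 5 lower. These 26 include the 2 that had to be lower. That fit called 867 of the 13576 genes higher and 398 lower. Gbp3, a guanylate-binding protein, was at 3.94, 3.84 and 3.67 FPKM in the wild type and 2.44, 2.20 and 2.85 FPKM in N40K (log2 difference -0.47 ± 0.084, adjusted p = 0.0051). Irf9, a subunit of the factor that drives these genes, was at 5.97, 5.84 and 7.04 FPKM in the wild type and 8.97, 8.16 and 8.04 FPKM in N40K (log2 difference 0.37 ± 0.084, adjusted p = 0.0169, and up to 0.0748 without wild-type replicate 2), the opposite way, and overlaps Rnf31. In the histocompatibility list B2m, the light chain of class I molecules, fell, with 113 to 115 FPKM in the wild type and 88.8 to 101 FPKM in N40K (log2 difference -0.24 ± 0.070, adjusted p = 0.0455, and up to 0.139 without N40K replicate 1) and H2-Ke6, named for its place in that region though it encodes a steroid dehydrogenase, rose (log2 difference 0.24 ± 0.067, adjusted p = 0.04, and up to 0.142 without N40K replicate 2), 2 of 22. Of 13 complement genes Cfb, for factor B, rose, with 2.23 to 2.34 FPKM in the wild type and 3.43 to 3.65 FPKM in N40K (log2 difference 0.45 ± 0.078, adjusted p = 0.00409). C1qa, of the first component, was at 32.6 to 38.0 FPKM in the wild type and 34.3 to 37.6 FPKM in N40K.

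Markers of cell types were read to see what tissue each group held. In bulk tissue, fewer cells of a type and less RNA per cell cannot be told apart. Markers of hippocampal neurons were present in every library, which goes with the label. Of 25 pyramidal neuron markers 3 fell and 1 rose (median -0.048). Spink8, of CA1, was at 26.7, 33.9 and 32.2 FPKM in the wild type and 21.1, 20.2 and 21.9 FPKM in N40K (log2 difference -0.53 ± 0.13, adjusted p = 0.0234, and up to 0.093 without wild-type replicate 2). Tspan18 was given above, and Ndst4 fell (log2 difference -0.37 ± 0.10, adjusted p = 0.0331, and up to 0.123 without N40K replicate 2). Neurod6 was at 78.6, 78.3 and 73.2 FPKM in the wild type and 58.1, 65.3 and 68.4 FPKM in N40K and was not called. Bok, counted as a pyramidal marker and known as a member of the Bcl2 family, rose, with 44.5 to 50.7 FPKM in the wild type and 59.9 to 75.5 FPKM in N40K (log2 difference 0.57 ± 0.10, adjusted p = 0.00573). Leaving out single libraries moved the lower calls to between 1 and 3, and with Xist as a covariate 1 was called lower.

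Of 22 dentate granule markers 2 rose and 0 fell, near the 8.26% of all genes, Jun above and Tdo2. The median was 0.152, and 0.151 without the 1 marker that passed the filter through N40K alone. Tdo2, for tryptophan dioxygenase, was at 5.10, 4.17 and 5.97 FPKM in the wild type and 7.995, 10.9 and 7.82 FPKM in N40K (log2 difference 0.70 ± 0.13, adjusted p = 0.00601). Prox1, which defines these neurons, was at 6.17, 5.96 and 6.76 FPKM in the wild type and 6.41, 9.34 and 6.11 FPKM in N40K, high in N40K replicate 2 alone. The 22 markers' mean log2 level, relative to the 6 libraries together, was 0.255 in that library and -0.167 to 0.028 in the others, and without it the list's median was 0.032. The part of this library in the rises of activity-regulated and histone genes was not tested. Interneuron markers had 2 rises among 22, Cort and Tac1, with Gad1 at 90.2, 90.7 and 87.8 FPKM in the wild type and 106, 82.3 and 85.5 FPKM in N40K. None of 15 genes of immature neurons was called.

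Glial and vascular markers gave few calls. Of 24 astrocyte markers Id4 and Apoe rose and 0 fell. Gfap was at 74.8, 78.2 and 80.5 FPKM in the wild type and 86.2, 91.3 and 89.7 FPKM in N40K (log2 difference 0.19 ± 0.082, adjusted p = 0.164, and up to 0.338 without wild-type replicate 1), with no overlap but no call. Of 30 microglia markers 0 were called (median -0.005), and Cx3cr1 was at 10.4 to 11.5 FPKM in the wild type and 10.4 to 11.1 FPKM in N40K. Of 30 oligodendrocyte markers 0 were called although 26 were below 0 (median -0.144). Mbp, for myelin basic protein, was at 806, 862 and 949 FPKM in the wild type and 679, 762 and 938 FPKM in N40K, which overlapped. The median was -0.219 to -0.056 with 1 library left out. None of 33 endothelial and mural markers and none of 12 choroid plexus markers was called, the latter with a median of -0.395 that was -0.977 without N40K replicate 2 and 0.377 without wild-type replicate 3. Of 18 cortical and striatal markers Bcl11b alone rose (log2 difference 0.23 ± 0.057, adjusted p = 0.0262, and up to 0.107 without wild-type replicate 2).

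The 12-month libraries come from other mice with their own controls, and their genotype difference was set beside that of 3 months in the same model, which shares its estimate of spread. At 12 months 2562 of the same 13576 genes were called (18.9%), 1493 higher and 1069 lower. Of the 1621 genes called at 3 months 1434 (88.5%) had the same sign at 12 months, against 65.0% of all genes, and 924 were called in the same direction (57.0% of the calls at 3 months and 36.1% of those at 12), 606 higher and 318 lower. In the opposite direction 13 were called. Snrnp70 differed by 1.27 ± 0.12 (SE; adjusted p = 8.41e-05) at 12 months and Hnrnpu by 1.28 ± 0.053 (SE; adjusted p = 4.05e-07). Of the 15 largest falls all were called again at 12 months, for instance Atp11b (log2 difference -0.81 ± 0.070, adjusted p = 4.06e-05) and Tspan18 (log2 difference -1.40 ± 0.067, adjusted p = 1.02e-06). Of the 15 largest rises 12 were called again, and Scand1 (log2 difference -0.42 ± 0.28, adjusted p = 0.322), Mir5130 (log2 difference -0.37 ± 0.39, adjusted p = 0.54) and Egr4 (log2 difference -0.089 ± 0.19, adjusted p = 0.782) were not. Cox8a (log2 difference -0.14 ± 0.15, adjusted p = 0.539) and Pcsk1n (log2 difference -0.31 ± 0.26, adjusted p = 0.431) were not called at 12 months either.

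The difference between the ages was tested itself, as 12-month minus 3-month effect, and 9 genes were called (0.0663%), with 1937 at an unadjusted p under 0.05. The count was 163 without N40K replicate 1 of 3 months and 0 without wild-type replicate 1 or 2 or N40K replicate 3. Gbp3, lower in N40K at 3 months, was at 1.73, 1.37 and 1.44 FPKM in the wild type and 2.15, 2.29 and 2.66 FPKM in N40K at 12 months, with N40K above. Jun, higher in N40K at 3 months, was at 22.4, 23.1 and 20.8 FPKM in the wild type and 18.2, 17 and 19.3 FPKM in N40K at 12 months, with N40K below. Tfrc, which brings transferrin-bound iron into cells, was at 29.0, 30.4 and 26.3 FPKM in the wild type and 28.0, 27.5 and 27.7 FPKM in N40K at 3 months, where the groups overlapped, and at 18.7, 17.5 and 18.5 FPKM in the wild type and 26.5, 26.8 and 25.3 FPKM in N40K at 12 months, where N40K was above. None of the 30 largest rises and falls was among the 9, Scand1, Mir5130 and Egr4 included. For the 15 histone genes that passed the filter through both groups the median was 0.715 at 3 months and 0.152 at 12 months, where 4 were called higher and 1 lower. The list was described at 3 months because of its values there, and no histone gene was among the 9, so a difference between the ages was not shown.

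**Figure D5:**
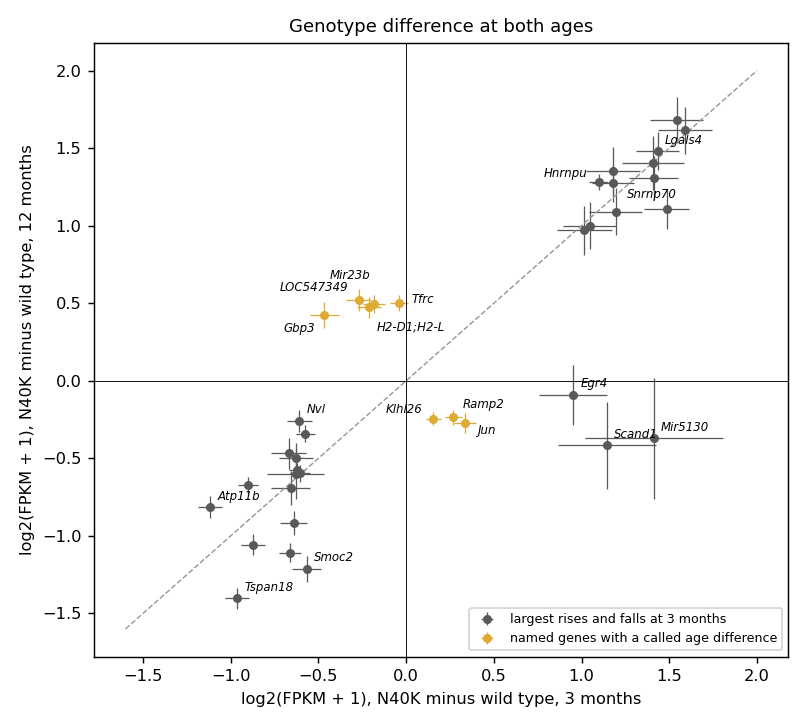
Difference in log2(FPKM + 1), N40K minus wild type, at 3 months (x axis) and 12 months (y axis); bars are standard errors and the dashed line marks equal differences. Grey points are the 30 largest rises and falls at 3 months with Snrnp70 among them, and orange points are 8 genes called for a difference between the ages; Scand1, Mir5130 and Egr4 lie right of 0 on the 3-month axis and below 0 on the 12-month axis.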

How the data were processed

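Hippocampal poly-A RNA of N40K and wild-type mice of 3 and 12 months was sequenced, 3 libraries a group. The authors deposited 1 table of FPKM (fragments per kilobase of transcript, scaled to the mapped total) with 23352 entries, of which 128 join several names. CASAVA, STAR, BWA and mm9 appear in the submitters' processing notes, with no role or version; how fragments were counted, on which annotation and with what strand setting is not given in the sources used here. The table holds no counts, so the main test was limma 3.58.1 (R 4.3.3) on log2(FPKM + 1) over genes that had 1 FPKM or more in 3 or more libraries of 3 months. The 12 libraries entered 1 model with 4 group means, with a variance trend, two-sided, with Benjamini-Hochberg adjustment over 13576 genes and a threshold of 0.05; contrasts were the genotype effect at each age and their difference. The model was run on simulated data with independent noise in each gene. Such data hold no shared effect of tissue content or sex, so the run cannot speak to those.

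Depth was estimated from the spacing of low values, which were whole multiples within 0.02 reads for 57.4% to 70.5% of values in the 6 libraries, too few to recover counts. Names were matched to the GENCODE mouse annotation, with synonyms from RefSeq, for 23006 entries (98.5%). GENCODE gave overlaps, GC content and transcript lengths. RefSeq tables (GRCm38.p6) gave the promoter and microRNA sequences. Motifs were searched on both strands of the 150 bases before each start.

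The comparison and the 72 gene lists were chosen with earlier results of these data known. Genes were named as follows: Snrnp70; the 15 with the highest and the 15 with the lowest ratio of mean FPKM among called genes without overlap and with a mean of at least 5 FPKM; up to 4 called members per list and direction by p, or the 2 most abundant where fewer than 2 were called; the 5 with the largest age difference in each direction; and defining markers. Others, named to complete a small count or to compare copies, were chosen after their values were seen. Some named genes are not reported here. Alternatives were pseudocounts of 0.5 and 0.1, other filters, median-ratio and quantile scaling, length and GC trends (lowess span 0.3), Xist or Ttr as a covariate, a replicate block, the 6 libraries alone, robust variances and each library left out. Leaving out both libraries rich in Ttr was added after seeing the data.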

Additional observations from a re-analysis of the deposited data

Results flagged for a closer look

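The difference in genotype effect between the ages, tested by limma's interaction term over the 13576 genes, singled out 8 named genes. Values are log2 differences on the log2(FPKM + 1) scale. Jun differed by 0.33 ± 0.064 at 3 months and -0.27 ± 0.064 at 12 months, so that its 12-month minus 3-month effect was -0.61 ± 0.090 (SE; adjusted p = 0.037). Gbp3, of the interferon response, differed by -0.47 ± 0.084 at 3 months and 0.42 ± 0.084 at 12 months, and the change between ages was 0.89 ± 0.12 (SE; adjusted p = 0.0223), an inversion of sign. Tfrc, the transferrin receptor that brings iron into cells, differed by -0.040 ± 0.051 at 3 months and 0.50 ± 0.051 at 12 months, a change of 0.54 ± 0.072 (SE; adjusted p = 0.0223). The class I entry that joins H2-D1 and H2-L changed by 0.68 ± 0.10 (SE; adjusted p = 0.0359), and LOC547349 by 0.79 ± 0.10 (SE; adjusted p = 0.0223). Ramp2, a partner of the calcitonin-like receptor, changed by -0.50 ± 0.067 (SE; adjusted p = 0.0223), Klhl26 by -0.40 ± 0.058 (SE; adjusted p = 0.0359), and the microRNA locus Mir23b by 0.68 ± 0.085 (SE; adjusted p = 0.0223). The ninth gene called, 9530052E02Rik, fell outside the naming rule, with a mean under 5 FPKM. The count rests on single libraries: it was 0 without wild-type replicate 1, wild-type replicate 2 or N40K replicate 3 of 3 months, 1 without wild-type replicate 3, 3 without N40K replicate 2, 163 without N40K replicate 1, and 0 with Xist as a covariate.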

How the results depend on the processing

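Against 1621 genes called (1121 higher, 500 lower), pseudocounts, filters, Ttr as a covariate and robust variances gave 1274 to 1606. A fit of the 6 libraries of 3 months alone called 1265 (867 higher, 398 lower) and kept 68.0% of the main calls. Median-ratio scaling called 780 higher and 682 lower, quantile normalization 821 and 690, length trend removal 838 and 715, and GC trend removal 776 and 687. Leaving out 1 library gave 808 to 1349 genes (589 to 954 higher, 219 to 395 lower). Without both libraries rich in Ttr, chosen after seeing the data, 572 were called (406 higher, 166 lower), with fewer samples. With Xist as a covariate 316 were lower. Same-numbered libraries did not deviate together from their group means (correlations 0.018, -0.422 and -0.311). Wild-type replicate 3 and N40K replicate 2, both rich in Ttr, correlated at 0.422. Such deviations carry tissue content too, so whether the numbers pair the libraries cannot be judged from them. The replicate block called 652 genes (472 higher, 180 lower). Against 9 genes for the difference between ages, 0 were called with Xist as a covariate, with the replicate block or without both libraries rich in Ttr, 5 with GC trend removal, and 0 to 163 with 1 library left out. Apart from fewer samples, the cause was not tested. Of 200 named called genes, 73 were called under every alternative and 0 changed sign. Depth is known only approximately, so counting error could not be given, and values of genes near 1 FPKM are the least certain.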

Other observations

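Among lists not described above, iron handling held 1 rise and 1 fall in 19 genes. Tfr2, a transferrin receptor that senses iron, was at 3.98, 4.6 and 3.64 FPKM in the wild type and 5.54, 5.10 and 5.14 FPKM in N40K (log2 difference 0.31 ± 0.086, adjusted p = 0.0408, and up to 0.133 without wild-type replicate 3). Slc11a2, the transporter of ferrous iron, was at 12.4, 12.3 and 11.8 FPKM in the wild type and 10.8, 9.73 and 10.7 FPKM in N40K (log2 difference -0.21 ± 0.058, adjusted p = 0.0388, and up to 0.144 without N40K replicate 2). Of 30 genes of cholesterol synthesis Tm7sf2, a sterol reductase, alone was called (log2 difference 0.29 ± 0.081, adjusted p = 0.0409, and up to 0.145 without N40K replicate 3), and not with any 1 library left out. Of 19 glucocorticoid-responsive genes Arrdc2, an arrestin-like protein, was at 5.93, 5.45 and 6.04 FPKM in the wild type and 7.28, 7.82 and 8.03 FPKM in N40K (log2 difference 0.36 ± 0.054, adjusted p = 0.00198), and the receptor gene itself, Nr3c1, fell (log2 difference -0.14 ± 0.040, adjusted p = 0.0472, and up to 0.164 without wild-type replicate 3).

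Of 22 tetraspanin genes Tspan17 rose, with 22.8 to 25.2 FPKM in the wild type and 28.1 to 36.2 FPKM in N40K (log2 difference 0.42 ± 0.081, adjusted p = 0.0072), opposite to Tspan18. Of 33 trophic factors and receptors Nrg3, a neuregulin that binds Erbb4, was the single call (log2 difference -0.15 ± 0.044, adjusted p = 0.043, and up to 0.138 without wild-type replicate 1). Bdnf was at 7.18 to 8.39 FPKM in the wild type and 7.61 to 9.53 FPKM in N40K. Of 22 ion pumps Atp2a2, the calcium pump of the endoplasmic reticulum, fell, with 131 to 137 FPKM in the wild type and 112 to 122 FPKM in N40K (log2 difference -0.18 ± 0.044, adjusted p = 0.0232, and up to 0.0929 without wild-type replicate 2). Oligodendrocyte precursor, reactive astrocyte, ependymal, thalamic and blood markers had 0 calls among 18, 17, 14, 13 and 19 genes, and of 20 genes of disease-associated microglia Apoe rose and B2m fell.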
